A study of Mus musculus with 12 samples.

Results

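The comparison described here sets SVR tumors treated with trametinib plus cediranib against SVR tumors treated with vehicle, gene by gene. It rests on 6 of the 12 tumors of the series, 3 per group, and covers the 12897 of 54232 listed genes that passed a filter on low counts. SVR is an endothelial mouse line transformed with H-ras that grows as an angiosarcoma, and it was injected under the skin of nude mice, while the strain is labelled C57BL/6. The combination group received trametinib (1 mg/kg) and cediranib (3 mg/kg) together by daily gavage and the vehicle group a carrier made of cremaphor, polyethylene glycol and tween, both once the tumors were established. The other tumors, 3 per group, received 1 of the drugs alone at the same dose. RNA came from whole frozen tumors and was enriched with exome probes before sequencing, a method chosen in the study because the RNA was partly degraded. Tumor, stroma, blood and skin were all of mouse origin, so their reads are counted together, and fewer cells of a type cannot be told apart from less RNA per cell. The study ran treatment experiments with different endpoints and the labels do not say from which these tumors came, so a difference in treatment time between the groups could not be told apart from the treatment.

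Trametinib inhibits the kinases MEK1 and MEK2, which activate ERK in the cascade that starts at RAS. ERK in turn switches on a set of target genes, many of which are feedback inhibitors of the same cascade, such as the dual-specificity phosphatases and the Sprouty proteins. Cediranib inhibits the receptors of vascular endothelial growth factor (VEGF), which drive endothelial growth and sprouting, partly through the same cascade. In a tumor of endothelial origin both drugs can therefore act on the tumor cells as well as on the vessels of the host.

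The libraries held 9584701 to 10313991 counts in the combination group and 10220176 to 11571487 in the vehicle group. All values by tumor are given in the order of replicates 1 to 3, in CPM, counts scaled to a common library size by TMM, and compare 1 gene between tumors rather than genes with each other. A count of 3, the limit that a count of 0 allows, was worth 0.251 to 0.349 CPM in a library, for counting error only. Of 22 endothelial identity markers all had counts and 17 passed the filter, while of 16 lymphocyte markers 1 passed. Skin transcripts moved with the groups. The mean log2 CPM of 29 epidermal genes other than keratins was 1.04, -0.63 and -0.49 with vehicle and 2.84, 3.50 and 3.09 with the combination. Skeletal muscle genes summed to 22186 CPM in vehicle replicate 2 and to at most 1026 CPM in the other 5 tumors. The labels do not say how the tumors of a group relate to each other beyond their numbers, so that p-values measure the spread between these samples.

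In combination treated tumors compared to vehicle, 466 genes were called (3.61% of the genes tested), 246 higher (1.91%) and 220 lower (1.71%). Calls needed an FDR of 0.05 from the quasi-likelihood test of edgeR with Benjamini-Hochberg adjustment, and a log2 fold change of 1.5 or more in absolute size. The FDR alone was passed by 626 genes that were higher (4.85%) and 661 that were lower (5.13%). Of the gene lists described here, those with 4 or more members called lower held ERK targets, endothelial, sprouting, hemoglobin and pericyte genes, and those with 4 or more called higher held epidermal, hair follicle, receptor tyrosine kinase and WNT genes. Calls that remained in each of the 6 fits without 1 of the tumors numbered 76 higher and 87 lower. The count was 267 without vehicle replicate 2, 237 without vehicle replicate 3, 306 without combination replicate 1 and 261 without combination replicate 2. With the epidermal mean as a covariate the count was 54 of the 12897 genes tested, with 11 of the 246 higher and 21 of the 220 lower genes still called. The epidermal mean did not overlap between the groups, so that fit has little power to tell it apart from the treatment. A list without calls there does not show that its change came from skin.

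**Figure D1:**
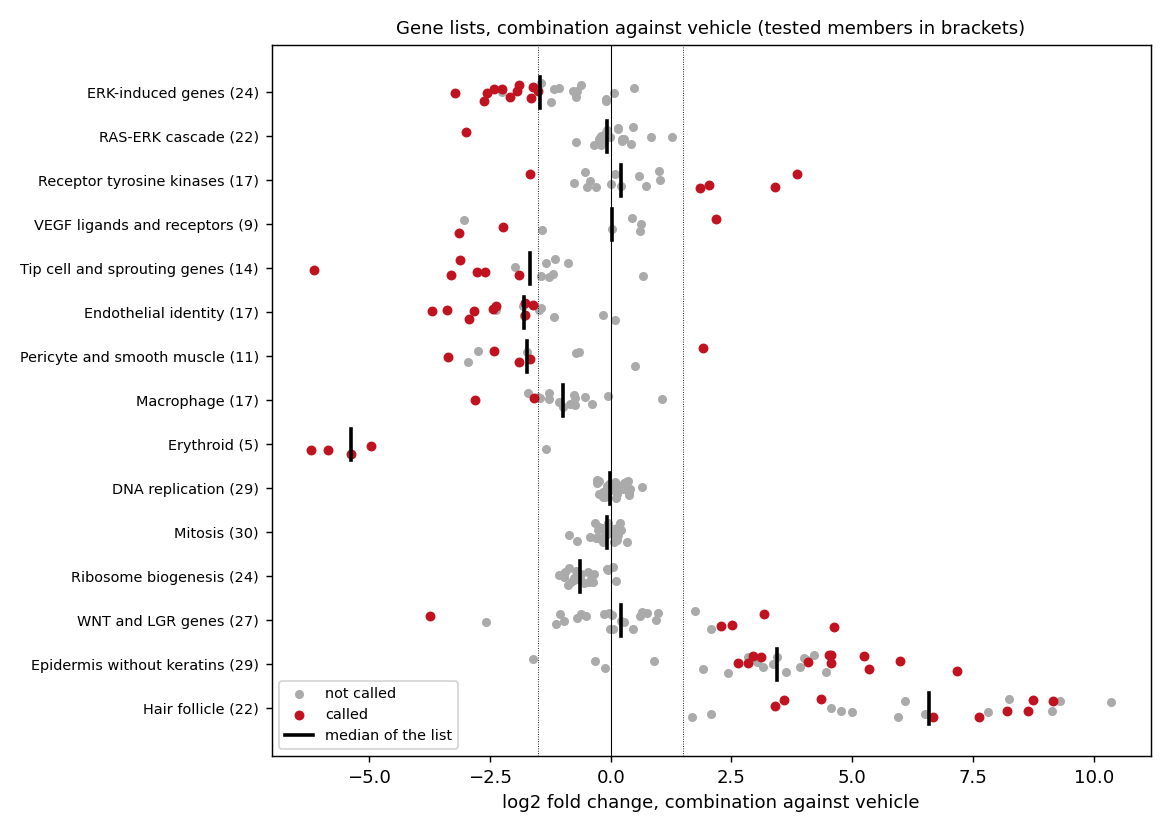
Log2 fold change of combination against vehicle for each tested member of 15 gene lists (1 point per gene, red where called, grey where not), with a black bar at the median of the list, dotted lines at -1.5 and 1.5 and the number of tested members in brackets. ERK-induced genes (median -1.47), endothelial identity (-1.79) and erythroid genes (-5.37) lie to the left, epidermis (3.44) and hair follicle (6.59) to the right, and DNA replication (-0.02) and mitosis (-0.07) on the zero line.

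Among genes that ERK is known to induce, 11 of the 24 tested members were called lower and 0 higher, where 1.71% of all genes tested were called lower. The median log2 fold change of the list was -1.47, against 0.00 over all genes tested. The 3 combination values lay below the 3 vehicle values in 18 of the 24, as they did in 15.7% of all genes. Between 9 and 11 members of the list were called when single tumors were left out, and 8 of the 11 were called in each of these fits. With the epidermal mean as a covariate 6 were called.

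The 3 dual-specificity phosphatases of the list, which remove the activating phosphates from ERK and related kinases, were called lower. Dusp6 (chromosome 10, 99263231 to 99267488), the phosphatase specific for ERK in the cytoplasm, had 47.7, 46.4 and 39.0 CPM in vehicle and 13.9, 11.3 and 10.2 CPM in combination treated tumors. The groups were well apart, with a log2 fold change of -1.91 (standard error 0.22, edgeR FDR 0.000747). Dusp5 (chromosome 19, 53529109 to 53542431), its nuclear counterpart, went from 50.1, 57.0 and 99.0 to 10.9, 9.99 and 12.5 CPM, 6.16-fold lower on the fitted scale. Its log2 fold change was -2.62 (standard error 0.30, edgeR FDR 0.000737). A gene on the opposite strand overlaps an exon of Dusp5, and reads of both cannot be told apart where the counting used no strand. Dusp4 (chromosome 8, 34807297 to 34819894), a nuclear phosphatase with a broader choice of kinases, had 34.2, 18.9 and 39.3 CPM in vehicle and 3.13, 5.17 and 7.24 CPM in the combination. Its highest combination value stayed below its lowest vehicle value, and the log2 fold change was -2.57 (standard error 0.46, edgeR FDR 0.00744).

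The upstream sequences of Dusp5 and Dusp6 are shown because these 2 phosphatases fell together and serum response factor, an ERK-regulated factor, is known to bind the CArG box. They come from RefSeq on GRCm38.p6, run 5′ to 3′ and end at the start of the gene. The Dusp5 stretch is chr19:53528895-53529108 on the plus strand, and capitals mark a pair of adjoining CArG boxes. The Dusp6 stretch is chr10:99262981-99263230 on the plus strand, and it holds no match to the motifs searched.
Dusp5: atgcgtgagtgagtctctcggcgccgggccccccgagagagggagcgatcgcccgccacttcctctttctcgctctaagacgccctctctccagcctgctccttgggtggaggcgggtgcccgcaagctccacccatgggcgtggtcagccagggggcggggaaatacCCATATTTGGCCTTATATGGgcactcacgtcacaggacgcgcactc
Dusp6: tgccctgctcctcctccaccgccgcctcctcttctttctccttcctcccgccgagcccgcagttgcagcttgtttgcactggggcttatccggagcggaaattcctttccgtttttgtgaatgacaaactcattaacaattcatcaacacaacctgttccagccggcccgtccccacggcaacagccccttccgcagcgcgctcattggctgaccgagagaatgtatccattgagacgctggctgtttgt
Searched on both strands over 250 bases before the RefSeq start, the CArG box occurred in 1.2% of the 8810 tested genes with such a stretch in the table. Of the 11 called members 4 had a stretch, and Dusp5 was the 1 with a CArG box. The ETS motif CCGGAAG was in 14.1% and the AP-1 motif TGANTCA in 4.22% of the 8810 stretches, and in 0 of these 4. Such matches describe the letters only.

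Spry4 (chromosome 18, 38586268 to 38601268), a Sprouty inhibitor of the signal below growth factor receptors, fell from 6.73, 6.79 and 5.66 to 1.51, 1.72 and 0.743 CPM. Its log2 fold change was -2.26 (standard error 0.32, edgeR FDR 0.00254). Spred1, a related inhibitor that acts with neurofibromin, had 552, 426 and 424 CPM in vehicle and 252, 248 and 318 CPM in the combination. Its groups did not overlap, but a log2 fold change of -0.78 (edgeR FDR 0.00781) stayed under the size for a call.

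Of the transcription factors in the list, Egr1 changed most. Egr1 (ENSMUSG00000038418; chromosome 18, 34859823 to 34864956), an immediate early gene, had 87.3, 86.2 and 88.1 CPM in vehicle and 10.2, 7.17 and 10.6 CPM in combination treated tumors. The vehicle values were nearly equal, and every combination value lay far below them. Egr1 had a log2 fold change of -3.23 (its standard error 0.21), with the smallest FDR of the comparison, 3.9e-05 from edgeR. Egr2 (chromosome 10, 67535475 to 67540381), of the same zinc finger family, went from 40.9, 48.3 and 55.3 to 3.23, 12.2 and 11.7 CPM (-2.41, standard error 0.40, edgeR FDR 0.00537). Egr3 (chromosome 14, 70077203 to 70079955) went from 51.2, 96.0 and 30.9 to 22.02, 15.8 and 19.03 CPM (-1.65, standard error 0.45, edgeR FDR 0.0405), and this call was lost without vehicle replicate 1 or 2 or without any combination replicate. The ETS factors act downstream of growth factor receptors. Etv5 (chromosome 16, 22381309 to 22439719) had 69.4, 76.7 and 72.0 CPM in vehicle and 16.1, 21.1 and 14.0 CPM in the combination (-2.09, standard error 0.25, edgeR FDR 0.000934). Etv4 had 89.3, 81.8 and 78.7 and 29.8, 36.5 and 25.7 CPM, and its log2 fold change of -1.44 (edgeR FDR 0.00355) fell just short of the size for a call.

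The list also holds genes of growth and the cell cycle. Ccnd1 (chromosome 7, 144929931 to 144939925), cyclin D1, which starts the passage from G1 into S phase, fell from 89.5, 114 and 93.5 to 32.9, 29.7 and 35.2 CPM. The groups were well apart, with a log2 fold change of -1.60 (standard error 0.16, edgeR FDR 0.00037), which fell under the size for a call without vehicle replicate 2. Phlda1 (chromosome 10, 111506286 to 111508645), a pleckstrin homology protein, fell from 44.97, 47.3 and 53.6 to 14.7, 11.6 and 11.9 CPM (-1.93, standard error 0.20, edgeR FDR 0.00045). Genes on the opposite strand overlap exons of Ccnd1 and Phlda1. Myc, a driver of growth and ribosome production, had 40.2, 31.8 and 41.4 CPM in vehicle and 19.2, 17.2 and 17.6 CPM in the combination, and Hmga2, an architectural chromatin protein, had 489, 383 and 333 and 160.2, 181 and 171 CPM. Both passed the FDR without reaching the size for a call, at -1.07 (edgeR FDR 0.00412) and -1.23 (edgeR FDR 0.00591).

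**Figure D2:**
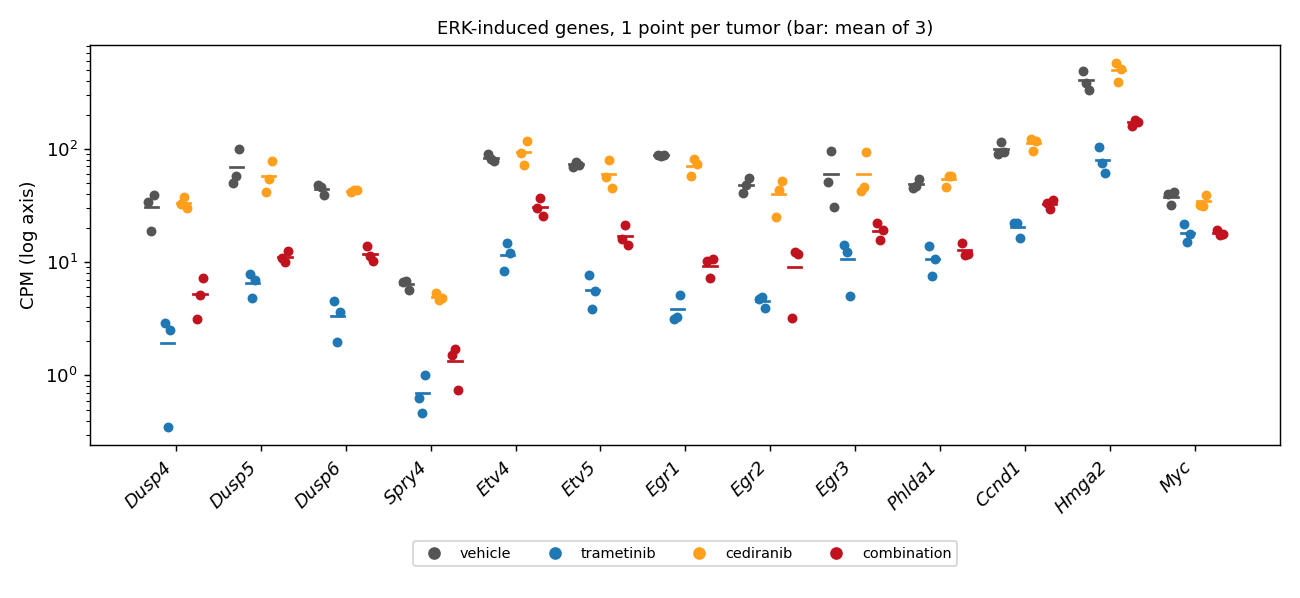
CPM on a log axis of 13 ERK-induced genes in each of the 12 tumors (points coloured by treatment, short bars at the mean of 3 tumors). The combination treated tumors lie below the vehicle treated tumors in all 13 genes, and for Dusp6, Etv4, Etv5, Egr1 and Hmga2 they lie above the trametinib treated tumors.

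The transcripts of the cascade itself gave 1 call. Of 22 members of the RAS-ERK cascade 1 was called lower and 0 higher, against 1.71% and 1.91% of all genes, with a list median of -0.08. Without overlap 4 were lower and 5 higher, against 15.7% and 15.6% of all genes. Map2k1, which encodes MEK1, had 226, 201 and 291 CPM in vehicle and 204, 181 and 243 CPM in the combination, and Map2k2, which encodes MEK2, had 69.7, 76.1 and 83.3 and 94.4, 83.5 and 76.8 CPM. Both ranges overlapped between the groups, with log2 fold changes of -0.19 (standard error 0.20) and 0.15 (standard error 0.13). The member called was Rps6ka2 (chromosome 17, 7170115 to 7303315), an RSK kinase that ERK activates, which fell from 105, 193 and 123 to 21.2, 19.9 and 11.9 CPM (-2.99, standard error 0.31, edgeR FDR 0.00045). The scaffold Ksr1 had 22.6, 29.3 and 20.1 CPM in vehicle and 50.1, 62.7 and 60.6 CPM in the combination, a log2 fold change of 1.27 (edgeR FDR 0.00404) under the size for a call. Its relative Ksr2 (chromosome 5, 117414000 to 117775003), not in the list, fell from 4.26, 1.93 and 2.53 CPM to 0.202, 0.0908 and 0.0928 CPM, or 94 counts against 4 (-4.40, standard error 0.71, edgeR FDR 0.00473). Rasa1, a GTPase activating protein for RAS, passed the FDR at -0.72 (edgeR FDR 0.0206).

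Genes outside the lists were also among the lowered genes with the smallest p-values. Inpp4b (chromosome 8, 81342556 to 82122788), a phosphatase of phosphoinositides, had 39.9, 85.6 and 75.0 CPM in vehicle and 5.86, 5.90 and 5.75 CPM in the combination. Its combination values were nearly equal, 11.4-fold below vehicle on the fitted scale, with a log2 fold change of -3.51 (standard error 0.29, edgeR FDR 0.000225). Itga6 (chromosome 2, 71745616 to 71856771), an integrin subunit of laminin receptors, fell from 271, 233 and 269.5 to 52.5, 33.0 and 51.1 CPM (-2.50, standard error 0.21, edgeR FDR 0.000225). Adgrg1 (chromosome 8, 94974751 to 95014196), an adhesion G protein-coupled receptor, and Add2 (chromosome 6, 86028681 to 86124409), an adducin of the membrane skeleton that is overlapped by an antisense gene, had log2 fold changes of -1.71 (edgeR FDR 0.000279) and -1.85 (edgeR FDR 0.00045). These 4 were called with each tumor left out and with the epidermal mean as a covariate. Trametinib alone against vehicle gave -2.28 for Inpp4b, -3.25 for Itga6, -1.76 for Adgrg1 and -2.07 for Add2.

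Among the calls that held with each tumor left out, the lowered genes with the biggest changes included Tnnt2 and Cbln1. Tnnt2 (chromosome 1, 135836354 to 135852260), the cardiac form of troponin T, had 151, 112 and 163 CPM in vehicle and 3.23, 1.91 and 8.35 CPM in the combination (-4.98, standard error 0.61, edgeR FDR 0.000995). It was 31.5-fold lower on the fitted scale, and the source of its transcripts within the tissue was not tested. Cbln1 (chromosome 8, 87468405 to 87472386), a secreted synapse organizer, fell from 13.6, 9.53 and 10.7 CPM to 0.303, 0.0908 and 0.835 CPM (-4.74, standard error 0.58, edgeR FDR 0.001). Rab11fip4 (chromosome 11, 79591212 to 79698023), an effector of the recycling GTPase Rab11, fell from 4.17, 10.0 and 6.77 CPM to 0, 0.272 and 0.743 CPM (-4.29, standard error 0.72, edgeR FDR 0.00592). Without combination replicate 3 the log2 fold changes were -5.80 for Tnnt2, -5.80 for Cbln1 and -5.51 for Rab11fip4. Trametinib alone against vehicle gave -3.65 for Tnnt2, -3.88 for Cbln1 and -3.82 for Rab11fip4.

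The raised genes with the smallest p-values included Pcdh19, Aqp5, Crabp2 and Cdon. Pcdh19 (chromosome X, 133582860 to 133688987), a protocadherin of cell adhesion with an antisense neighbor, rose from 42.2, 49.5 and 53.6 to 499, 443 and 404 CPM. The increase was 9.26-fold on the fitted scale (log2 fold change 3.21, standard error 0.31, edgeR FDR 0.00037). Aqp5 (chromosome 15, 99590782 to 99594608), a water channel, rose from 0.511, 0.304 and 0.808 to 16.7, 19.2 and 9.84 CPM (4.79, standard error 0.44, edgeR FDR 0.000279). Crabp2 (chromosome 3, 87948666 to 87953376), which carries retinoic acid to the nucleus, rose from 0.852, 1.72 and 2.12 to 12.8, 10.3 and 18.2 CPM (3.14, standard error 0.33, edgeR FDR 0.00045). Cdon (chromosome 9, 35421128 to 35507652), a coreceptor for Hedgehog, was at 1.62, 5.17 and 3.64 CPM in vehicle and at 54.5, 43.7 and 89.6 CPM in the combination, with no overlap (4.18, standard error 0.48, edgeR FDR 0.000737). Pcdh19, Crabp2 and Cdon were also called with the epidermal mean as a covariate, and Aqp5 had 4.32 there and was not called. Trametinib alone, set against the same vehicle treated tumors, gave 3.38 for Pcdh19, 3.64 for Aqp5, 5.18 for Crabp2 and 3.63 for Cdon.

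Further raised genes included Tnr, Has1, Htra1, Hlf and Sybu. Tnr (chromosome 1, 159523769 to 159931729), tenascin R, was near the limit of counting in vehicle at 0.341, 0.101 and 0.202 CPM and reached 24.9, 21.0 and 14.3 CPM in the combination. The fitted log2 fold change was 6.43 (standard error 0.78, edgeR FDR 0.000921), from 7 counts in the vehicle group against 632. Has1 (chromosome 17, 17843323 to 17855188), a hyaluronan synthase, rose from 4.43, 2.13 and 3.13 to 20.8, 19.2 and 35.7 CPM (2.95, standard error 0.34, edgeR FDR 0.000765). Htra1 (chromosome 7, 130936111 to 130985660), a secreted serine protease, rose from 18.7, 17.8 and 27.4 to 62.0, 66.8 and 87.4 CPM (1.76, standard error 0.20, edgeR FDR 0.000635). Hlf (chromosome 11, 90336536 to 90390895), a circadian bZIP transcription factor, rose from 3.07, 0.101 and 0.303 CPM to 32.7, 26.7 and 34.1 CPM (4.67, standard error 0.72, edgeR FDR 0.00385). Without vehicle replicate 1 its log2 fold change was 7.18. Sybu, a kinesin adaptor with an antisense neighbor, had 3 counts in the vehicle group and 151 in the combination group, a ratio of 50.04 (95% interval 16.8 to 245), for counting error only. Its fitted log2 fold change of 5.47 was 6.36 without vehicle replicate 2. Trametinib alone against vehicle gave 5.44 for Tnr, 2.52 for Has1, 1.90 for Htra1, 2.87 for Hlf and 4.93 for Sybu.

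Of the 9 tested VEGF ligands and receptors, 1 was called higher and 2 lower, against 1.91% and 1.71% of all genes, with a median of 0.03. With the epidermal mean as a covariate 0 were called. The ligand that binds mainly the lymphatic receptor, Vegfd (chromosome X, 164373378 to 164402650), rose from 0.426, 1.32 and 1.82 to 7.37, 4.54 and 4.08 CPM (2.17, standard error 0.43, edgeR FDR 0.0105), with each tumor left out as well. Trametinib alone against vehicle gave 2.14 for Vegfd. Vegfa, the main ligand of sprouting, had 407, 210.4 and 439 CPM in vehicle and 379, 307 and 394 CPM in the combination. The ranges overlapped, and its log2 fold change of 0.03 (standard error 0.31) changed sign as single tumors were left out. Vegfb, with 0.60 (edgeR FDR 0.036), and the coreceptor Nrp2, with 0.64 (edgeR FDR 0.0298), passed the FDR without the size for a call.

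Of the 3 VEGF receptors that cediranib inhibits, the transcripts of Kdr and Flt4 were called lower, calls that single tumors decided. Kdr (ENSMUSG00000062960; chromosome 5, 75932827 to 75978458), VEGF receptor 2, had 4.68, 8.62 and 20.003 CPM in vehicle and 2.42, 2.45 and 2.13 CPM in combination treated tumors. The combination values were tight and the vehicle values wide, with a log2 fold change of -2.24 (standard error 0.56, edgeR FDR 0.0287). Flt4 (chromosome 11, 49609263 to 49652739), VEGF receptor 3, fell from 3.92, 5.27 and 14.3 to 0.606, 0.545 and 1.49 CPM (-3.13, standard error 0.68, edgeR FDR 0.0158). Flt1, VEGF receptor 1, had 18.1, 18.5 and 22.2 CPM in vehicle and 8.38, 3.36 and 10.4 CPM in the combination, and -1.41 (edgeR FDR 0.0248) was under the size for a call. Without vehicle replicate 3 the log2 fold changes were -1.504 for Kdr and -2.37 for Flt4, and without combination replicate 3 that of Flt4 was -3.75. Among the fits without 1 tumor Kdr was called only without vehicle replicate 1, and Flt4 was not called without vehicle replicate 3, combination replicate 1 or combination replicate 2. With the epidermal mean as a covariate the values were -0.60 for Kdr and -1.37 for Flt4, neither called. Kit, another kinase that cediranib binds, had 2.47, 2.13 and 14.3 CPM in vehicle and 3.33, 4.81 and 4.92 CPM in the combination, with overlap.

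Tip cell and sprouting genes, which mark the endothelial cells at the front of a growing vessel, were lower. Of 14 tested members 6 were called lower and 0 higher (median -1.67), and 13 had all 3 combination values below all 3 vehicle values, where the shares of all genes were 1.71% and 15.7%. The count of calls ran from 4 without vehicle replicate 3 or combination replicate 2 to 7 without vehicle replicate 1. With the epidermal mean as a covariate 0 were called and the median was -1.10. Dll4 (ENSMUSG00000027314; chromosome 2, 119325784 to 119335962), the Notch ligand of tip cells, had 2.38, 4.66 and 15.7 CPM in vehicle and 0.101, 0.182 and 0 CPM in the combination. This was 229 counts against 3, a vehicle level higher by a ratio of 76.8 (95% interval 25.9 to 375), for counting error only. All 3 combination values were below the worth of 3 counts, and the call held with each tumor left out (edgeR FDR 0.00647 with all tumors). The fitted log2 fold change went from -6.15 to -5.05 without vehicle replicate 3 and to -6.96 without combination replicate 2, and with the epidermal mean as a covariate Dll4 was not called. A noncoding gene on the opposite strand overlaps Dll4.

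The stretch before Dll4 is shown because Dll4 had the most negative fitted log2 fold change of the vascular genes described, -6.15 (standard error 1.07). It is chr2:119325534-119325783 of GRCm38.p6 on the plus strand, from RefSeq, and none of the motifs named above matched in it.
Dll4: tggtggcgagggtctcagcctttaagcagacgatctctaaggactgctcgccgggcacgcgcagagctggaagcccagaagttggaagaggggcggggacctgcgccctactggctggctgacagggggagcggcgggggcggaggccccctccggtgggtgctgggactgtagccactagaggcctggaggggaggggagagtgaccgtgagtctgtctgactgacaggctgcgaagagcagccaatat
Igfbp3 (chromosome 11, 7206086 to 7213897), a binding protein of insulin-like growth factors, fell from 18.1, 33.0 and 41.5 to 4.85, 2.72 and 3.06 CPM (-3.12, standard error 0.38, edgeR FDR 0.000931). Pdgfb (chromosome 15, 79995874 to 80014808), the ligand by which tip cells recruit pericytes, fell from 5.54, 11.2 and 12.1 to 1.51, 1.18 and 2.04 CPM (-2.60, standard error 0.37, edgeR FDR 0.00237). Both calls held with each tumor left out. Lamb1, a laminin chain of the vessel basement membrane, had 769, 834 and 891 CPM in vehicle and 374, 293 and 324 CPM in the combination, with -1.33 (edgeR FDR 0.000475) under the size for a call.

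Endothelial identity genes were lower too. Of 17 tested members 9 were called lower, against 1.71% of all genes, and 0 higher (median -1.79), and their summed level was 376, 482 and 775 CPM in vehicle and 156, 114 and 201 CPM in combination treated tumors. The sums did not overlap, and vehicle replicate 3 was the highest. The number of calls was 3 without vehicle replicate 3, 4 without combination replicate 1 and 2 without combination replicate 2. With the epidermal mean as a covariate 0 were called and the median was -1.17. Pecam1 (chromosome 11, 106654217 to 106750628), the junction protein CD31, fell from 4.599, 3.14 and 4.14 to 0.909, 0.272 and 0.371 CPM (-2.93, standard error 0.49, edgeR FDR 0.0059). Fli1 (chromosome 9, 32422204 to 32542861), an ETS factor of endothelial cells, fell from 46.7, 64.1 and 69.5 to 13.0, 16.2 and 23.4 CPM (-1.78, standard error 0.32, edgeR FDR 0.00744). These were the 2 members called in each fit without 1 tumor, and the log2 fold change of Pecam1 was -3.57 without combination replicate 1. S1pr1 (chromosome 3, 115710433 to 115715072), the endothelial receptor of sphingosine 1-phosphate, fell from 60.0, 73.9 and 138 to 6.77, 7.63 and 24.0 CPM (-2.82, standard error 0.59, edgeR FDR 0.0127), and was not called without vehicle replicate 3, combination replicate 1 or combination replicate 2. Without combination replicate 3 its log2 fold change was -3.66.

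**Figure D3:**
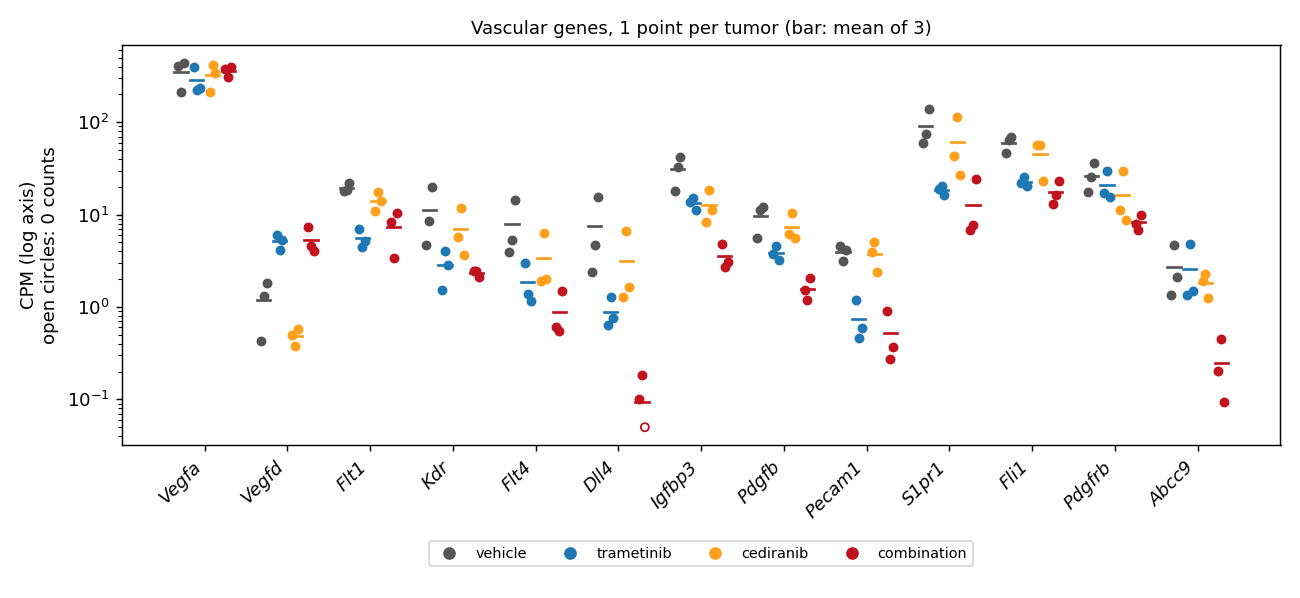
CPM on a log axis of 13 vascular genes in each of the 12 tumors (points coloured by treatment, short bars at the mean of 3 tumors, an open circle for a library with 0 counts). Dll4, Igfbp3, Pdgfb, Pecam1 and Fli1 are lower in all combination treated than in all vehicle treated tumors, while Vegfa overlaps and Vegfd is higher.

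Pericytes and smooth muscle cells wrap around vessels and depend on PDGF receptor beta. Of 11 tested members 4 were called lower and 1 higher (median -1.72), against 1.71% and 1.91% of all genes. With the epidermal mean as a covariate 0 were called and the median was -0.16. The summed level overlapped, at 150.2, 556 and 569 CPM in vehicle and 187, 127 and 291 CPM in the combination. Pdgfrb (chromosome 18, 61045150 to 61085061) fell from 17.5, 25.3 and 36.1 to 7.98, 6.81 and 9.93 CPM (-1.67, standard error 0.44, edgeR FDR 0.0351). Abcc9 (chromosome 6, 142587862 to 142702218), a potassium channel subunit of pericytes, fell from 1.36, 4.66 and 2.12 to 0.202, 0.454 and 0.0928 CPM (-3.36, standard error 0.73, edgeR FDR 0.0158). The lowered calls rest on single tumors, with 0 left without vehicle replicate 2, combination replicate 1 or combination replicate 3 and 1 without vehicle replicate 3 or combination replicate 2. Notch3 (chromosome 17, 32120820 to 32166880), a Notch receptor of mural cells, went the other way, from 19.5, 27.9 and 26.3 to 78.0, 43.3 and 157 CPM (1.92, standard error 0.38, edgeR FDR 0.011), and was not called without combination replicate 3, where it had 1.30. Abcc9 had -2.73 without vehicle replicate 2 and -4.11 without combination replicate 2. Genes on the opposite strand overlap Abcc9 and Notch3.

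Erythroid genes, mostly hemoglobins carried by red cells, had the lowest median log2 fold change of the 29 lists, -5.37. The 4 hemoglobin genes summed to 258, 72.0 and 1781 CPM in vehicle and 14.5, 14.1 and 13.2 CPM in combination treated tumors, a ratio of means of 50.5 that was 11.8 without vehicle replicate 3. The combination values were nearly equal and vehicle replicate 3 stood far above the other vehicle values. Of 5 tested erythroid genes 4 were called lower, all of them hemoglobins, against 1.71% of all genes. With the epidermal mean as a covariate 0 were called and the median was -1.81. Hbb-bs (chromosome 7, 103826534 to 103828096), a beta chain, had 172, 50.2 and 1158 and 8.99, 6.36 and 8.72 CPM (-5.84, standard error 1.32, edgeR FDR 0.0186). The alpha chain genes Hba-a1 and Hba-a2 are near-identical copies, so reads could be split between them, and had -4.97 (edgeR FDR 0.0299) and -5.37 (edgeR FDR 0.0138). The number of calls was 0 without any 1 of the combination replicates and 1 without vehicle replicate 3, where the log2 fold changes were -3.80 for Hbb-bs, -3.01 for Hba-a1 and -3.21 for Hba-a2. Without combination replicate 2 that of Hba-a1 was -5.71.

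Macrophage markers were lower in sum, at 421, 724 and 516 CPM in vehicle and 266, 338 and 193 CPM in the combination, without overlap. Most of the sum was Mrc1, with 291, 474 and 311 CPM in vehicle and 176, 229 and 111 CPM in the combination. Mrc1 was under the size for a call at -1.06 (edgeR FDR 0.0234). Of 17 tested members 2 were called lower and 0 higher (median -0.98), and 9 were lower without overlap, where the shares of all genes were 1.71% and 15.7%. With the epidermal mean as a covariate 0 were called and the median was -0.24. Cd68 (chromosome 11, 69664213 to 69666153), a lysosomal glycoprotein of macrophages, fell from 4.26, 4.16 and 5.05 to 1.31, 1.91 and 1.21 CPM (-1.59, standard error 0.33, edgeR FDR 0.0127), a call lost without combination replicate 3. Fcgr1 (chromosome 3, 96282909 to 96293969), a high affinity Fc receptor, fell from 2.38, 5.17 and 6.77 to 1.01, 0.635 and 0.371 CPM (-2.81, standard error 0.79, edgeR FDR 0.0427), and among the fits without 1 tumor it was called only without vehicle replicate 1. Csf1r, the receptor of macrophage colony stimulating factor, had 67.7, 151 and 119 CPM in vehicle and 45.1, 51.8 and 42.0 CPM in the combination, under the size for a call at -1.28 (edgeR FDR 0.0311), with a gene on the opposite strand. The count of calls was 1 without vehicle replicate 2, vehicle replicate 3, combination replicate 1 or combination replicate 2, 0 without combination replicate 3 and 3 without vehicle replicate 1.

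Of the neutrophil markers 4 of 12 passed the filter and 1 was called higher, against 1.91% of all genes. It was S100a9, with 3 counts in the vehicle group and 50 in the combination group, a ratio of 16.6 (95% interval 5.35 to 83.1), for counting error only. Its fitted log2 fold change of 3.91 was 7.04 without vehicle replicate 1. Among the fits without 1 tumor it was called only without vehicle replicate 1. Fibroblast markers had 1 of 17 called higher and 0 lower, against 1.91% and 1.71% of all genes. They summed to 3029.9, 8786 and 23688 CPM in vehicle and 6988, 4087 and 6388 CPM in the combination, so the vehicle values spanned the combination values. The member called was Fbln1 (chromosome 15, 85205949 to 85286535), fibulin 1 of the matrix, with 195, 122 and 149 and 608, 492 and 304 CPM (1.59, standard error 0.41, edgeR FDR 0.0304), lost without vehicle replicate 2 or 3 or combination replicate 1 or 2. Without vehicle replicate 1, 3 fibroblast members were called lower. Skeletal muscle genes had a median of -3.80, with 0 of 24 called by edgeR, 8 by DESeq2 and 15 at an unadjusted p under 0.05, and Myh4, a myosin heavy chain, had 8.60, 11297 and 2.02 CPM in vehicle and 17.2, 0.726 and 11.3 CPM in the combination. The value of Myh4 came from vehicle replicate 2, without which its log2 fold change was 0.84.

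Many epidermal genes were higher. Of 12 tested keratins 1 was called higher, against 1.91% of all genes, and all 12 were higher without overlap, against 15.6% of all genes. The keratin called was Krt15, and among the fits without 1 tumor it was called only without vehicle replicate 1. The keratin median of 4.28 was -2.71 with the epidermal mean as a covariate. Of 29 tested epidermal genes other than keratins 12 were called higher and 0 lower (median 3.44), and 25 were higher without overlap, where the shares of all genes were again 1.91% and 15.6%. With the epidermal mean, which these genes make up, as a covariate 0 were called. Lor (chromosome 3, 92080271 to 92083142), loricrin of the cornified layer, rose from 7.49, 2.23 and 3.94 to 29.8, 38.9 and 30.1 CPM (2.84, standard error 0.65, edgeR FDR 0.0199). Pkp3 (chromosome 7, 141078218 to 141090510), a plakophilin of desmosomes, rose from 2.81, 2.33 and 1.31 to 8.18, 15.4 and 17.1 CPM (2.64, standard error 0.50, edgeR FDR 0.00888), and Sfn (chromosome 4, 133600556 to 133602168), an epithelial 14-3-3 protein, from 3.83, 2.13 and 1.41 to 18.2, 25.1 and 21.3 CPM (3.11, standard error 0.60, edgeR FDR 0.00978). Pkp3 and Sfn were called with each tumor left out, and Lor was not without vehicle replicate 2 or 3 or combination replicate 2. The list had 2 calls without vehicle replicate 2, vehicle replicate 3 or combination replicate 2, 7 without combination replicate 1 and 6 without combination replicate 3.

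Hair follicle genes had 9 of 22 tested members called higher, against 1.91% of all genes and 0 with the epidermal mean as a covariate, and a median of 6.59, or 6.11 with the 4 members that had a group at 0 set to the bound of 3 counts. Their summed level was 6.47, 6.69 and 6.67 CPM in vehicle, 31.5, 34.6 and 29.5 CPM in trametinib, 6.79, 5.86 and 862 CPM in cediranib and 496, 301 and 679 CPM in combination treated tumors. A high level was thus seen in all 3 combination treated tumors and in cediranib replicate 3. Dlx3 (chromosome 11, 95120119 to 95125296), a homeobox factor of hair differentiation, rose from 4.003, 2.84 and 1.31 to 29.1, 42.9 and 28.0 CPM (3.60, standard error 0.52, edgeR FDR 0.00265). With trametinib alone Dlx3 had 29.5, 32.7 and 28.8 CPM (3.46 against vehicle), most of the summed level of the list in those tumors. Dlx3 was the 1 member called with each tumor left out, and the count was 3 without vehicle replicate 1, 1 without vehicle replicate 2, vehicle replicate 3 or the third combination tumor, and 2 without combination replicate 1 or 2. Sostdc1, a WNT and BMP inhibitor of the follicle, had 1 count in the vehicle group and 142 in the combination group, a ratio of 141 (95% interval 24.9 to 5615), for counting error only. Its combination values were 1.31, 3.99 and 7.89 CPM, and it was not called without vehicle replicate 2 or 3 or combination replicate 3. Its fitted log2 fold change of 6.67 was 8.53 without vehicle replicate 1 and 5.94 without combination replicate 3. The part of skin in the tissue taken was not tested as a source of these values.

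**Figure D4:**
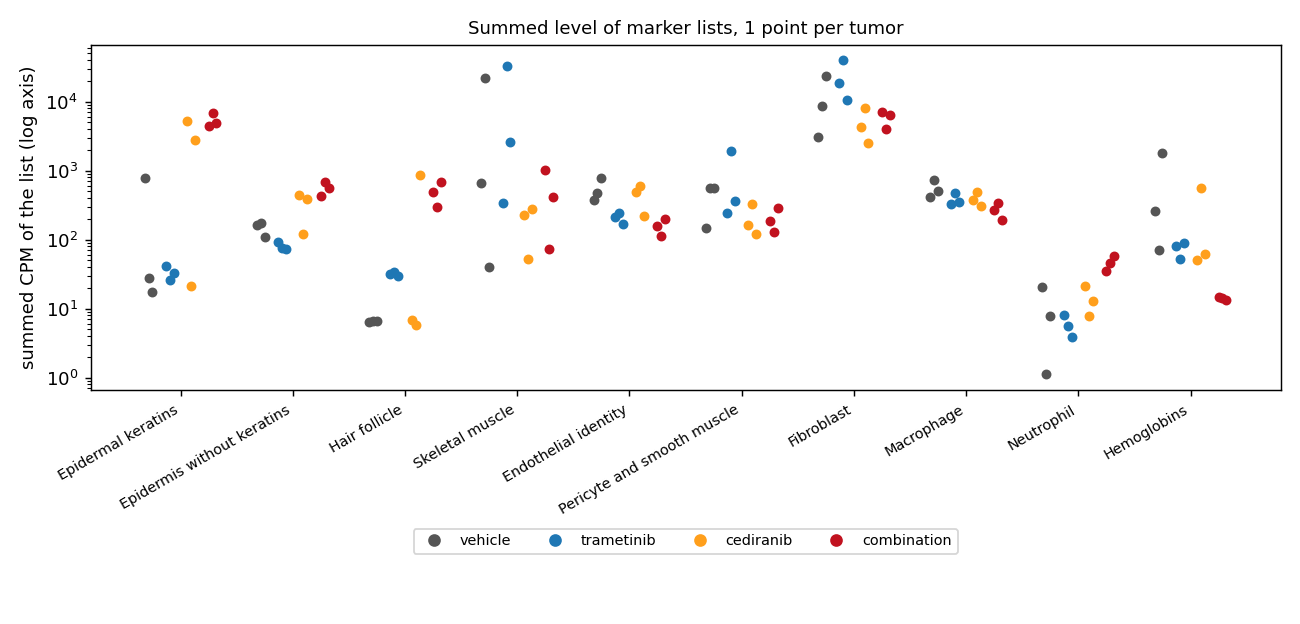
Summed CPM on a log axis of 9 marker lists and of the 4 hemoglobins in each of the 12 tumors (points coloured by treatment). Epidermal and hair follicle sums are higher and endothelial, macrophage and hemoglobin sums lower in all 3 combination treated than in all 3 vehicle treated tumors, while the muscle, fibroblast and pericyte sums overlap. Neutrophil sums are also higher in all 3 combination treated tumors, where Hdc makes up most of them with 30.3, 36.1 and 52.8 CPM. Hdc was not called (edgeR FDR 0.0699).

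Receptor tyrosine kinases pass growth signals to RAS. Of 17 tested members 4 were called higher and 1, Pdgfrb, lower (median 0.20), against 1.91% and 1.71% of all genes. Fgfr2 (chromosome 7, 130162451 to 133123350), a fibroblast growth factor receptor, rose from 2.47, 2.53 and 2.22 to 23.8, 20.2 and 33.2 CPM (3.41, standard error 0.45, edgeR FDR 0.00155), and Ctbp2 overlaps it on the same strand. Erbb2 (chromosome 11, 98412470 to 98437716), the ligandless receptor of its family, rose from 4.34, 3.75 and 6.36 to 18.1, 22.2 and 18.8 CPM (2.03, standard error 0.36, edgeR FDR 0.00696). Its partner Erbb3 (chromosome 10, 128567523 to 128589652) rose from 1.11, 0.304 and 0.202 to 5.45, 10.5 and 8.54 CPM (3.85, standard error 0.82, edgeR FDR 0.0142). Fgfr2 and Erbb2 were called with each tumor left out, Erbb3 was not without vehicle replicate 2 or 3 and had 4.95 without vehicle replicate 1, and 2 members were called higher without vehicle replicate 2 and 2 without vehicle replicate 3. With the epidermal mean as a covariate the log2 fold changes were 2.10 for Fgfr2, 1.82 for Erbb2 and 1.08 for Erbb3, and 0 members were called.

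WNT and LGR genes had 4 of 27 tested members called higher and 1 lower (median 0.20), against 1.91% and 1.71% of all genes, and 0 with the epidermal mean as a covariate. Lgr4 (chromosome 2, 109917647 to 110014257), a receptor of R-spondins, and Rspo3 (chromosome 10, 29452416 to 29535867), an R-spondin that strengthens WNT signals, were both called with each tumor left out. Lgr4 rose from 10.2, 15.4 and 11.3 to 77.7, 47.8 and 55.2 CPM (2.29, standard error 0.31, edgeR FDR 0.00179), and trametinib alone gave 2.82 against vehicle. Rspo3 had 0, 1.22 and 0.202 CPM in vehicle and 6.97, 10.7 and 16.7 CPM in the combination (4.62, standard error 0.75, edgeR FDR 0.00473), with an antisense gene over it. Sfrp2 (chromosome 3, 83766321 to 83774316), a secreted WNT modulator, fell from 8.60, 19.6 and 85.0 to 3.64, 2.00 and 2.88 CPM (-3.73, standard error 0.81, edgeR FDR 0.0152), and was not called without vehicle replicate 3, where it had -2.31, or without combination replicate 2 or 3. Rspo3 had 3.99 without vehicle replicate 1 and 6.76 without vehicle replicate 2. The number called higher was 2 without vehicle replicate 2 or combination replicate 3.

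Genes of DNA replication and mitosis gave no calls. Of 29 tested DNA replication genes edgeR called 0 in either direction (median -0.02) and DESeq2 0, with 3 at an unadjusted p under 0.05. Of 30 mitosis genes both tools called 0 (median -0.07), with 4 at an unadjusted p under 0.05, and the summed levels of both lists overlapped between the groups. Ribosome biogenesis genes had small decreases that many members shared. Of 24 members 0 were called by edgeR or DESeq2, but 17 had an unadjusted p under 0.05, 11 passed the FDR alone as lower (against 5.13% of all genes) and 18 were lower without overlap (against 15.7%), with a median of -0.64. Nop56, a nucleolar protein of small RNA particles that overlaps such RNA genes, had 186, 169 and 200.3 CPM in vehicle and 107, 120.1 and 111 CPM in the combination (-0.71, standard error 0.10, edgeR FDR 0.00213). The summed level of the list was 2177, 2253 and 2628 CPM in vehicle and 1584, 1804 and 1210.0 CPM in the combination. Of 14 tested cell cycle inhibitors and D cyclins 1 was called lower and 0 higher, against 1.71% and 1.91% of all genes. It was Ccnd1, which the ERK-induced list also holds. The CDK inhibitor Cdkn2c had 50.1, 49.1 and 36.8 and 93.5, 92.1 and 136 CPM, under the size for a call at 1.24 (edgeR FDR 0.00978). Of 11 tested members of the BCL2 family, which governs apoptosis, 0 were called by edgeR or DESeq2 and 3 had an unadjusted p under 0.05, and its survival member Bcl2l1 had 61.7, 54.3 and 58.9 CPM in vehicle and 21.5, 24.9 and 43.1 CPM in the combination (-0.97, edgeR FDR 0.0285).

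Interferon-stimulated genes had 1 of 17 tested members called higher (median 0.68), against 1.91% of all genes. Ifit1 (chromosome 19, 34640871 to 34650009), an antiviral RNA-binding protein, rose from 7.75, 7.40 and 3.54 to 28.0, 43.2 and 11.1 CPM (2.13, standard error 0.46, edgeR FDR 0.0155), and was not called without vehicle replicate 3 or combination replicate 2. Of 14 MHC class I genes edgeR and DESeq2 called 0, with 4 at an unadjusted p under 0.05, and of 22 genes of glycolysis and hypoxia they called 0, with 0 at that p. Of 6 tested Schwann cell genes 1 was called lower, against 1.71% of all genes. It was Egr2, which the ERK-induced list also holds. Of 6 sebaceous, 8 adipocyte and 1 melanocyte gene 0 were called by edgeR, with 3, 1 and 0 at an unadjusted p under 0.05 and 0, 1 and 0 called by DESeq2.

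The combination was next compared with trametinib alone, which asks what cediranib added, and 87 genes were called (0.675% of the genes tested), 69 higher (0.535%) and 18 lower (0.14%). Leaving out trametinib replicate 1, 2 or 3 gave 16, 3 or 6 calls, and leaving out combination replicate 1, 2 or 3 gave 21, 0 or 10. The epidermal mean ran from -1.15 to -0.88 in trametinib treated tumors, apart from the combination, and was 2.84, -0.60 and 2.72 in cediranib replicates 1 to 3. The test of edgeR called 0 genes with it as a covariate, where 715 had an unadjusted p under 0.05. Without the covariate 2309 genes (17.9%) had such a p, and DESeq2 called 347.

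Some ERK-induced genes were higher in the combination than with trametinib alone, though lower than in vehicle. Dusp6 had 4.54, 1.98 and 3.60 CPM in trametinib and 13.9, 11.3 and 10.2 CPM in combination treated tumors, a log2 fold change of 1.79 (standard error 0.24, edgeR FDR 0.0196). Etv5 had 7.63, 3.84 and 5.53 CPM in trametinib and 16.1, 21.1 and 14.0 CPM in the combination (1.58, standard error 0.27, edgeR FDR 0.0269). These were the 2 of 24 members called higher, against 0.535% of all genes, and the list had a median of 0.86 in this comparison. Egr1 (1.26, edgeR FDR 0.028), Etv4 (1.40, edgeR FDR 0.0237) and Hmga2 (1.09, edgeR FDR 0.0388) passed the FDR without the size for a call. Set against vehicle, the list medians were -2.27 for trametinib, -0.02 for cediranib and -1.47 for the combination, which share the vehicle treated tumors.

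Other genes were higher in the combination than with trametinib. Fgfr2 had 5.27, 6.17 and 2.76 CPM in trametinib, 15.2, 4.63 and 15.4 CPM in cediranib and 23.8, 20.2 and 33.2 CPM in combination treated tumors, and differed from trametinib by 2.45 (standard error 0.42, edgeR FDR 0.0278). Rspo3 had 0.635, 1.05 and 0.837 CPM in trametinib and 0.0999, 0 and 0 CPM in cediranib treated tumors, and the combination exceeded trametinib by 3.77 (standard error 0.70, edgeR FDR 0.0369). It was thus at or near 0 with cediranib alone. Cacnb2 (chromosome 2, 14603088 to 14987908), a calcium channel subunit overlapped by antisense genes, had 1.09, 1.40 and 1.51 CPM in trametinib, 0.999, 0.568 and 1.44 CPM in cediranib and 7.98, 7.54 and 4.64 CPM in the combination (2.33, standard error 0.37, edgeR FDR 0.0226). Celsr2, a cadherin of planar cell polarity, had 0.0908, 0.466 and 0.0837, 5.60, 1.23 and 6.32 and 13.2, 14.98 and 13.0 CPM, by tumor in the same group order (6.06, standard error 0.70, edgeR FDR 0.0196). Of the epidermal genes other than keratins 10 of 29 were called higher than with trametinib, against 0.535% of all genes.

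Other genes were lower than with trametinib. Crabp2 had 48.4, 53.1 and 68.1 CPM in trametinib treated tumors, and the combination lay below them with a log2 fold change of -2.04 (standard error 0.28, edgeR FDR 0.0196), though above vehicle. Igfbp3 had 13.7, 15.01 and 11.3 CPM in trametinib and 8.39, 18.6 and 11.1 CPM in cediranib treated tumors, both above the combination (-1.91 against trametinib, standard error 0.37, edgeR FDR 0.0402). Cd68 had 2.91, 5.59 and 5.02 CPM in trametinib treated tumors (-1.60, standard error 0.33, edgeR FDR 0.0473).

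**Figure D5:**
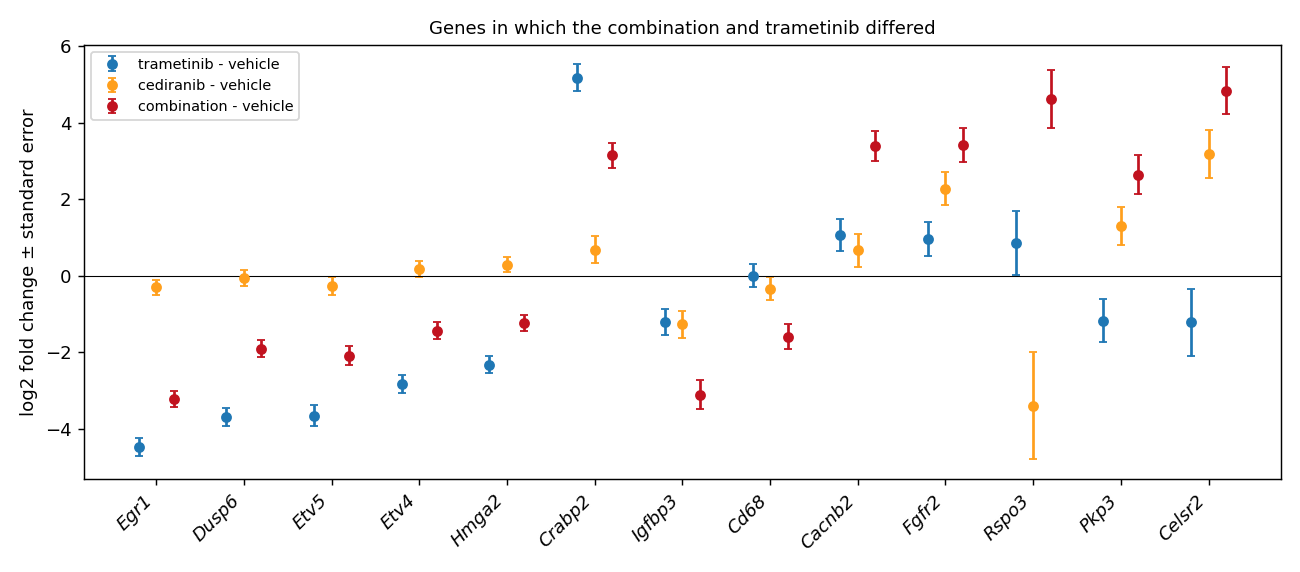
Log2 fold change against vehicle with its standard error for 13 genes under trametinib, cediranib and the combination (points and bars coloured by treatment, each against the same 3 vehicle treated tumors). All 13 passed the FDR between combination and trametinib, as with Dusp6 at -3.70 for trametinib and -1.91 for the combination.

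Whether the combination differed from the sum of both single-agent effects was tested on the log2 scale. The quasi-likelihood test of edgeR called 0 genes (0.0%), with 909 at an unadjusted p under 0.05 (7.05%), and the Wald test of DESeq2 called 28. Egr1 had 1.57 in this contrast (standard error 0.29, edgeR FDR 0.246) and Inpp4b -1.14 (standard error 0.38, edgeR FDR 0.654). Neither passed the threshold, which does not show that the effects were additive.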

How the data were processed

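Counts of 12 SVR tumors were analysed, 3 per treatment. Per the submitters' processing notes the authors used bcl2fastq 1.8.4, STAR 2.7.1a on the GRCm38 build and featureCounts 1.6.0, and the deposited values are raw counts per gene. Neither strand setting nor annotation release is stated. The deposited table gave the coordinates, and GENCODE M21 the overlapping genes. Libraries held 9478865 to 11666094 counts. Genes were filtered with filterByExpr (minimum count 10, minimum total 15), scaled with TMM and tested by quasi-likelihood in edgeR 4.0.16 (R 4.3.3), where 1 fit held all 12 libraries. The threshold (FDR of 0.05 by Benjamini-Hochberg, absolute log2 fold change of at least 1.5) is that of the study. The filter took genes at 0.97014 CPM or more in at least 3 libraries, between Gm26649 (0.97072 CPM, tested) and D430040D24Rik (0.96956 CPM, not tested). A standard error is the size of the log2 fold change over the square root of F, and counting intervals are exact (Clopper-Pearson, 95%). Genes were matched by name and identifier, and the script was tested on simulated data.

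Members and gene lists were chosen with earlier results of these data known. Single genes followed a rule. It takes the 10 called genes with the smallest p in each direction, the 10 in each direction with the largest change among those called in each of the 6 fits without 1 tumor, the drug targets, all members of the ERK-induced, RAS-ERK and VEGF lists, and up to 4 members with the smallest p of the other lists. Genes without a symbol were skipped in the first and second of these. Alternatives were RLE factors, library totals, no filter, DESeq2 1.42.0, a replicate block, the epidermal mean as a covariate, the FDR alone, only the libraries compared, and each library left out.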

Additional observations from a re-analysis of the deposited data

How the results depend on the processing

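The count for combination against vehicle was 1129 without the filter on low counts, 54 with the epidermal mean as a covariate, 1287 by FDR alone and between 237 and 575 with single tumors left out, in place of 466. Library totals gave 511 calls, 62.6% of them higher in place of 52.8%, with the all-gene median at 0.13 (log2). For combination against trametinib (87) the count was 773 without the filter, 347 by DESeq2, 57 with the replicate block, 0 with the epidermal mean, 274 with only the 6 libraries compared and 0 to 21 with single tumors left out. For the combination beyond the sum of the single agents (0) it was 261 without the filter, 28 by DESeq2 and 0 to 1 with single tumors left out, 1 without cediranib replicate 3. RLE factors gave 467, 85 and 0 calls.

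Among the single genes followed through these alternatives, signs changed with the epidermal mean for Map2k1 (0.082), Mapk3 (0.21), Kit (1.49) and Krt15 (-1.15). List medians changed sign there too, among them epidermal keratins (4.28 to -2.71), epidermis without keratins (3.44 to -0.58) and fibroblast (-0.62 to 0.92). Signs also changed for Vegfa without vehicle replicate 2 (-0.24), combination replicate 1 (-0.001508) or combination replicate 3 (-0.04, range -0.24 to 0.22), for Kit without vehicle replicate 3 (0.91, range -0.94 to 0.91) and for Myh4 without vehicle replicate 2 (0.84, range -9.28 to 0.84). The cause was not tested.

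Same-numbered tumors of both groups had correlations of -0.13, -0.12 and 0.02 between their deviations, so the numbers were not taken as pairs. The replicate block gave 446 calls for combination against vehicle. With 3 tumors per group and a coefficient of variation of 27.2%, smaller differences may have gone undetected.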
